A study of Mus musculus with 12 samples.

Results

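Recombination and T cell receptor (TCR) genes were followed through splenic γδ T cells, thymic γδ T cells and thymic DN1-DN3 cells of WT and GFI1 KO mice. The 7 genes, Rag1, Rag2, Dntt, Ptcra, Trbc1, Trbc2 and Trac, were chosen by name out of the 33696 genes in the count matrices. Adult mice on a C57BL6/J background were used, and the KO mice lack GFI1, a transcriptional repressor, in the germline. The compartments were sorted splenic CD3+ CD4neg γδ T cells, sorted thymic CD8negCD4neg γδ T cells, and a pool of DN1, DN2 and DN3 cells, the CD4- CD8- thymocyte stages. Each compartment has 2 pools, and in each pool WT and KO cells carried different antibody hashtags and shared 1 droplet run, which gives 12 libraries with 2 per genotype and compartment. B, myeloid and NK cells were depleted from all of them before the sort, and CD8+ cells were partly removed from the thymus. The number of animals behind a library, and whether compartments share animals, is not given in the sources used here, so comparisons of compartments carry no animal block. Compartments were separate pools, so compartment and pool cannot be told apart beyond the 2 pools of each. The p-values rest on the spread between 2 libraries a group, which may be technical. In fits of whole libraries all 12 libraries shared 1 estimate of each gene's spread, so p does not measure the spread of the compared groups alone.

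RAG1 and RAG2 form the recombinase that cuts the TCR gene segments, and TdT, the product of Dntt, adds untemplated bases at the joins. In the αβ lineage a rearranged β chain, which carries a constant region from Trbc1 or Trbc2, pairs with pre-Tα, the product of Ptcra, to form the pre-TCR at the DN3 stage, and the α chain with its constant region from Trac replaces pre-Tα later. Most γδ T cells branch off around DN2 and DN3 with a γδ TCR instead. The paper adds that the DN1 subsets DN1d and DN1e have been shown to generate γδ T cells too. Transcripts of unrearranged or partly rearranged TCR loci are common in both the αβ and the γδ lineage.

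Promoter sequences are shown for the 4 genes found in the RefSeq-derived table (build GRCm38.p6), which holds none for Trbc1, Trbc2 or Trac. Each sequence is the 250 bases before the gene's start, in gene direction, with matches to CANNTG, the E-box letters bound by E proteins, in capitals. The palindromic letters were searched once and read the same on both strands. They lie at chr2:101649533-101649782 on the minus strand for Rag1, chr2:101624462-101624711 on the plus strand for Rag2, chr19:41029025-41029274 on the plus strand for Dntt and chr17:46763713-46763962 on the minus strand for Ptcra.
Rag1: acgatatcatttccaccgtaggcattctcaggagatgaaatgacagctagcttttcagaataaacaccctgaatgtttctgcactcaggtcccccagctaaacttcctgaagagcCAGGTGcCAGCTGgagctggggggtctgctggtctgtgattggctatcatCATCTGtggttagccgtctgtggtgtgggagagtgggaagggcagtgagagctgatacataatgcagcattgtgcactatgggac
Rag2: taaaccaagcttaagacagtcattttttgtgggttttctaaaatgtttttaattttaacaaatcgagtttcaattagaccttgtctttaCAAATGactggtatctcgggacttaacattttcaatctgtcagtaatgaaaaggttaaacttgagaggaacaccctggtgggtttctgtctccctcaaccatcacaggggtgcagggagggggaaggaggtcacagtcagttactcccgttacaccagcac
Dntt: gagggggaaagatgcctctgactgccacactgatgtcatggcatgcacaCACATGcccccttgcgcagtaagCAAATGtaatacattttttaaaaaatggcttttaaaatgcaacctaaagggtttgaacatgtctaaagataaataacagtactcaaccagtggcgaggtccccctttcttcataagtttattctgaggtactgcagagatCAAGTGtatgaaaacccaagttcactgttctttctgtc
Ptcra: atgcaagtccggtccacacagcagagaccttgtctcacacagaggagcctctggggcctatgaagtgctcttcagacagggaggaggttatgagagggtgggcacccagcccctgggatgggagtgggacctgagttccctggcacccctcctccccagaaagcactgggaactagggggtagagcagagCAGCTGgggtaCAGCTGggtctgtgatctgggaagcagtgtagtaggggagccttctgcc
Rag1 and Dntt held 3 matches each, Ptcra 2 and Rag2 1, and both Ptcra matches and 1 of those of Rag1 read CAGCTG. Of 32851 promoters of the same length, 66.2% held at least 1 match, 31.8% at least 2 and 12.2% at least 3, so such matches were common and none is shown here to be bound.

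Counts are unique molecular identifiers (UMIs), each standing for 1 captured transcript. A level in CPM is a gene's share of all UMIs of a library's kept cells, on the usual CPM scale. The libraries kept 6795 to 11679 cells with 42091895 to 71663962 UMIs and a median of 4947 to 6853 UMIs a cell. A UMI of a γδ constant gene was found in 95.5 to 99.7% of cells in the γδ libraries, and in 87.6 to 92.8% of DN1-DN3 cells. Gfi1 counts did not fall in KO-labelled libraries, with 11.8 and 18.0 CPM in WT against 18.1 and 18.1 in KO spleen, 16.5 and 17.6 against 29.0 and 19.2 in thymic γδ T cells, and 44.7 and 40.6 against 70.6 and 56.6 in DN1-DN3. Which part of the gene the KO allele lacks is not given in the sources used here, so the 3′ counts of Gfi1 do not check the labels, and WT and KO below mean the libraries labelled so. WT and KO libraries of the same pool shared no cell barcode, and libraries of different pools shared 5 to 34, at most 0.499% of the smaller library.

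**Figure D1:**
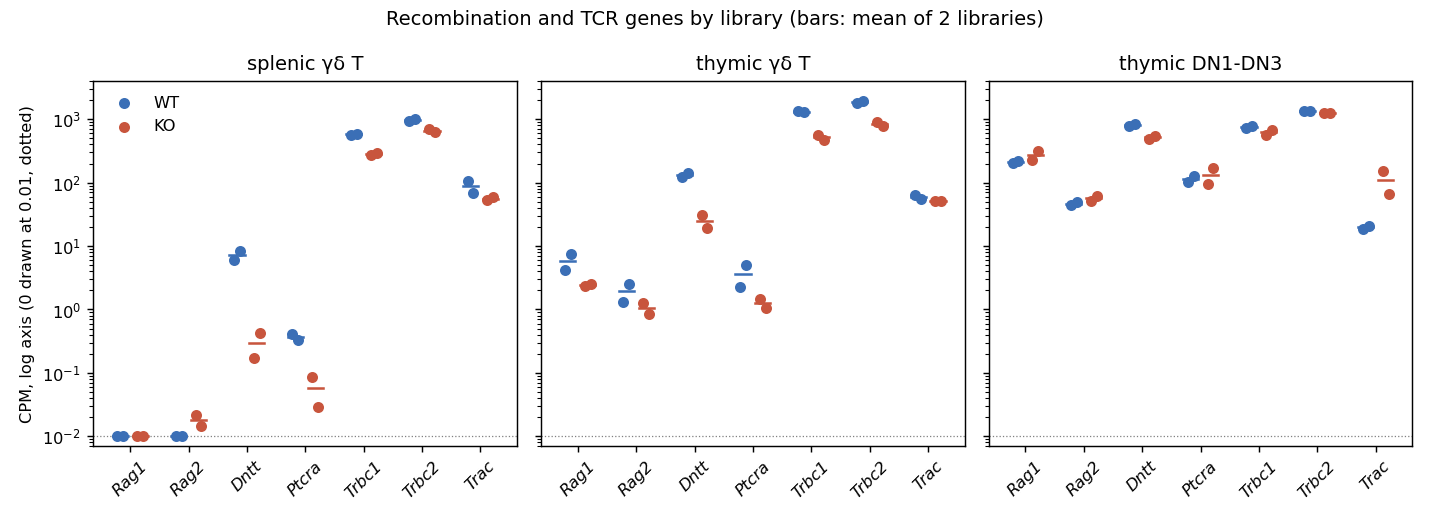
Level of the 7 genes in each of the 12 libraries, in CPM on a log axis, with 1 point a library and a bar at the mean of the 2 libraries of a genotype. Values of 0 are drawn on the dotted line at 0.01. Rag1, Rag2 and Ptcra drop by compartment from DN1-DN3 to thymic to splenic γδ T cells, and Trac stands higher in KO than in WT only in the DN1-DN3 panel.

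Recombinase transcripts were abundant in DN1-DN3 cells and scarce in γδ T cells. Rag1 had 203 and 216 CPM in WT DN1-DN3 cells and 4.16 and 7.56 CPM in WT thymic γδ T cells, a log2 difference of -5.13 ± 0.32 (SE, adjusted p = 1.51e-05). Rag2 had 44.4 and 49.4 CPM against 1.31 and 2.55 CPM, a difference of -4.57 ± 0.29 (adjusted p = 6.29e-06). In the spleen, no Rag1 UMI was found in any of 18980 WT and 19494 KO cells, which allows a share of up to 0.0158% and 0.0154% of cells with a UMI. Against a floor of 3 UMIs over both libraries, Rag1 was at least 204-fold lower in WT splenic than in WT thymic γδ T cells, and at least 95-fold lower in KO. Rag2 had no UMI in WT spleen, at least 67.4-fold below thymic γδ T cells, and 2 UMIs in KO spleen, where the thymic level was 61.0 times the splenic one (95% counting interval 16.4 to 511.2). These limits and intervals, and the ones given for shares of cells, cover counting error only.

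Dntt and Ptcra followed the same order of compartments. Dntt was at 787 and 851 CPM in WT DN1-DN3, 122 and 142 CPM in WT thymic γδ T cells and 6.13 and 8.32 CPM in WT splenic γδ T cells. Both steps down passed the test, at -2.61 ± 0.24 (adjusted p = 2.57e-05) and -4.11 ± 0.26 (adjusted p = 3.35e-06) on the log2 scale. Ptcra was at 102 and 126 CPM in WT DN1-DN3, 2.22 and 5.07 CPM in WT thymic γδ T cells and 0.404 and 0.336 CPM in the spleen. Its steps were -4.94 ± 0.41 (adjusted p = 1.46e-05) and -3.25 ± 0.57 (adjusted p = 0.00119). All 4 genes were called lower in thymic γδ T than in DN1-DN3 cells of both genotypes, where 47.2% of all genes were called in WT and 57.3% in KO. In KO the thymic γδ T values against DN1-DN3 were -6.65 ± 0.36 for Rag1, -5.63 ± 0.32 for Rag2, -4.25 ± 0.26 for Dntt and -6.58 ± 0.47 for Ptcra.

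The constant genes did not share this order. Trbc1 was highest in WT thymic γδ T cells, with 1334 and 1288 CPM against 724 and 771 CPM in WT DN1-DN3 and 557 and 592 CPM in WT spleen. Trbc2 had 1771 and 1909 CPM in WT thymic γδ T cells, 1331 and 1357 CPM in DN1-DN3 and 937 and 1015 CPM in the spleen. In WT both rose from DN1-DN3 to thymic γδ T cells, Trbc1 by 0.83 ± 0.14 (adjusted p = 0.000807) and Trbc2 by 0.47 ± 0.12 (adjusted p = 0.00737) on the log2 scale. The Trbc2 call was lost without WT thymic γδ T replicate 2 (adjusted p = 0.0851) or WT DN1-DN3 replicate 1 (adjusted p = 0.0607). Trac had 18.8 and 20.7 CPM in WT DN1-DN3, 62.9 and 54.3 CPM in thymic γδ T cells, a rise of 1.58 ± 0.31 (adjusted p = 0.00246), and 106 and 69.8 CPM in the spleen, a step from thymic γδ T cells of 0.66 ± 0.30 that did not pass (adjusted p = 0.0974, and 0.0477 with DESeq2). All 7 genes were called in WT thymic γδ T cells against DN1-DN3, where 47.2% of 14911 genes were called, and 6 of 7 in WT spleen against thymus, where 48.8% were. In KO the counts were 6 of 7 against 57.3% and 5 of 7 against 36.6%.

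In KO, Trbc2 fell from DN1-DN3 to thymic γδ T cells by 0.45 ± 0.12 on the log2 scale (adjusted p = 0.00775, and 0.0647 without KO thymic γδ T replicate 2). Trac, which rose along this step in WT, fell by 0.93 ± 0.31 in KO (adjusted p = 0.0253). That call was lost without either KO thymic γδ T replicate (adjusted p = 0.121 without replicate 1 and 0.0925 without replicate 2) and without KO DN1-DN3 replicate 1, where the value was -0.33 (adjusted p = 0.233), as well as without a filter on low counts (adjusted p = 0.0885). Trbc1 in KO stood at -0.13 ± 0.14 (adjusted p = 0.428), and at -0.38 without KO DN1-DN3 replicate 1 (adjusted p = 0.0194). From thymus to spleen in KO, Dntt fell by 6.22 ± 0.34 (adjusted p = 1.85e-06) and Ptcra by 4.50 ± 0.96 (adjusted p = 0.00501) on the log2 scale, the latter lost without KO splenic replicate 2 (adjusted p = 0.0541), and Trac had 0.17 ± 0.31 (adjusted p = 0.71). Along the same step Trbc1 fell by 0.81 ± 0.14 (adjusted p = 0.00128) and Trbc2 had -0.29 ± 0.12 (adjusted p = 0.075). Trbc2 was called lower there with library size only (-0.43, adjusted p = 0.0156) and with DESeq2 (-0.28, adjusted p = 0.0326).

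**Figure D2:**
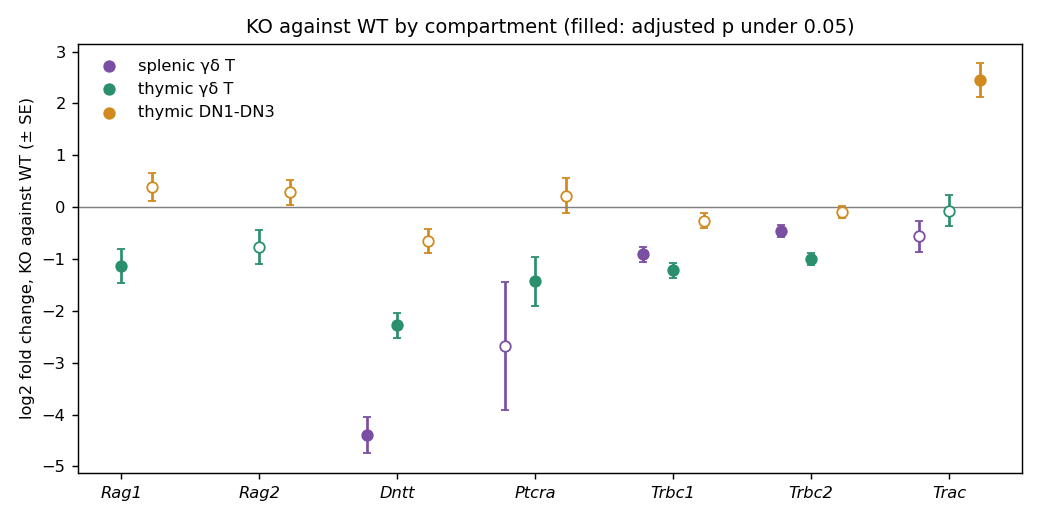
Log2 fold change of KO against WT with its standard error for each gene in the 3 compartments, filled where the adjusted p was under 0.05. Rag1 and Rag2 in the spleen have no point because at most 2 UMIs were counted in a genotype. Dntt lies below 0 in all 3 compartments and Trac in DN1-DN3 stands at 2.45.

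In splenic γδ T cells of KO mice the TdT gene and both β constant genes were lower. Dntt had 6.13 and 8.32 CPM in WT and 0.171 and 0.432 CPM in KO, from 258 and 495 UMIs against 8 and 30. The groups were far apart, and the log2 change of -4.40 ± 0.35, 21.1-fold lower, passed the test (adjusted p = 5.38e-06). A Dntt UMI was found in 2.37 and 3.24% of WT cells and in 0.0896 and 0.248% of KO cells. Rag1 had no UMI in the same cells, at the same depths.
Trbc1 had 557 and 592 CPM in WT and 274 and 297 CPM in KO, a log2 change of -0.91 ± 0.14 (adjusted p = 0.000299). Trbc2 had 937 and 1015 CPM against 696 and 631 CPM, a log2 change of -0.46 ± 0.12 (adjusted p = 0.00695). Neither gene's groups overlapped, but the Trbc2 call was lost without WT replicate 2 (-0.40, adjusted p = 0.0547) or KO replicate 2 (-0.37, adjusted p = 0.067). Trac had 106 and 69.8 CPM in WT and 52.4 and 58.9 CPM in KO (-0.56 ± 0.30, adjusted p = 0.144). Ptcra was counted with 17 and 20 UMIs in WT and 4 and 2 in KO (-2.68 ± 1.23, adjusted p = 0.0906). Fitted to the 4 splenic libraries alone, both were called lower, at -0.61 (adjusted p = 0.0496) for Trac and -2.70 (adjusted p = 0.00658) for Ptcra. DESeq2 called Ptcra too (-2.72, adjusted p = 0.00224), and library size only called Trac (-0.80, adjusted p = 0.0491). With all 12 libraries 3 of the 5 members that could be compared were called, all lower, where 54.8% of 14911 genes were called and 26.1% were called lower. The split over all genes depended on scaling, with 4272 higher and 3894 lower here and 2899 higher and 5634 lower with library size alone, and the 3 members were lower with both.

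Coreceptor genes (Cd4, Cd8a, Cd8b1) moved with genotype in the spleen, at a summed 130 to 145 CPM in WT and 6.32 to 7.63 CPM in KO, and 1 of the 3 was at 0 in each KO library. In WT spleen the 1475 and 2340 cells with a coreceptor UMI held Dntt at 15.2 and 24.3 CPM, against 3.66 and 3.33 CPM in the other cells. Cells with a coreceptor UMI were 18.9 and 21.0% of WT and 1.75 and 2.20% of KO splenic cells. Without coreceptor cells the Dntt difference was -3.59 ± 0.38 (adjusted p = 3.48e-05). Trbc1 and Trbc2 kept their calls without them, and Trac stayed uncalled. NK cell genes (Ncr1, Klrb1c, Klra8, Eomes) summed to 95.8 to 114 CPM in WT and 9.78 to 10.7 CPM in KO, and erythroid genes to 24.5 to 28.8 and 49.2 to 116 CPM. Myeloid genes (Lyz2, Itgam, Csf1r, Itgax) summed to 1.81 to 5.04 CPM in WT and 0.547 to 1.09 CPM in KO, with none of the 4 at 0. The part of the NK, erythroid and myeloid signals in these results was not tested.

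Thymic γδ T cells showed a decrease in 5 of the 7 genes in KO, where 49.7% of 14911 genes were called and 23.7% were called lower. Dntt had 122 and 142 CPM in WT and 30.8 and 19.6 CPM in KO, a log2 change of -2.28 ± 0.24 or 4.86-fold (adjusted p = 4.76e-05). Trbc1 had 1334 and 1288 CPM against 565 and 472 CPM (-1.22 ± 0.14, adjusted p = 6.47e-05), and Trbc2 1771 and 1909 CPM against 912 and 776 CPM (-1.0 ± 0.12, adjusted p = 7.32e-05). The split over all genes was 3885 higher and 3533 lower, and 3206 and 4364 with library size alone. Dntt, Trbc1 and Trbc2 kept their calls without any single library, and no KO library reached a WT one. Cells with a Dntt UMI made up 36.3 and 34.7% of WT cells and 8.57 and 6.43% of KO cells, at median depths of 6853 and 6850 UMIs in WT and 5742 and 5665 in KO. After each cell was thinned to 3000 UMIs the shares were 22.4% ± 1.37 in WT and 4.33% ± 1.13 in KO (SD, n = 2 each), with 11.1 to 19.1% of WT and 4.49 to 17.4% of KO cells left out over the 3 compartments as too shallow. An exact permutation test of 2 against 2 libraries cannot go below p = 0.33, which this share reached.
Coreceptor genes summed to 7.13 and 10.9 CPM in WT and 3.12 and 3.42 CPM in KO, with none of the 3 at 0, and without cells that held one the changes were -2.25 for Dntt, -1.26 for Trbc1 and -1.03 for Trbc2. NK cell genes summed to 16.6 and 12.5 CPM in WT and 14.3 and 4.14 CPM in KO, with up to 1 of 4 at 0. Myeloid genes summed to 0.916 and 1.48 CPM in WT and 0.637 and 0.353 CPM in KO. The part of the NK and myeloid signals was not tested.

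The low-count genes were less firm in thymic γδ T cells. Rag1 had 4.16 and 7.56 CPM in WT and 2.34 and 2.56 CPM in KO, from 245 and 542 UMIs against 99 and 116 (-1.14 ± 0.33, adjusted p = 0.0211). Ptcra had 2.22 and 5.07 CPM against 1.46 and 1.06 CPM (-1.43 ± 0.47, adjusted p = 0.0284). Both calls were lost without WT replicate 2, at -0.65 (adjusted p = 0.131) and -0.71 (adjusted p = 0.267), and also without KO replicate 1 (adjusted p = 0.128 and 0.0889) or KO replicate 2 (adjusted p = 0.0841 and 0.165). Without a filter on low counts neither was called (adjusted p = 0.0939 and 0.105), and without cells with a coreceptor UMI Rag1 was at -0.83 (adjusted p = 0.0472) and Ptcra was not called (-1.18, adjusted p = 0.0592). Rag2 had 1.31 and 2.55 CPM in WT against 1.25 and 0.860 CPM in KO (-0.77 ± 0.33, adjusted p = 0.0841), and -1.16 without WT replicate 1 (adjusted p = 0.00773). Rag2 was called with library size only (-0.88, adjusted p = 0.0496), with DESeq2 (-0.79, adjusted p = 0.0399) and without the cells with the most UMIs (-1.62, adjusted p = 0.00242). Trac had 62.9 and 54.3 CPM in WT and 51.2 and 51.5 CPM in KO (-0.07 ± 0.30, adjusted p = 0.878).

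The KO effect on Dntt was larger in the spleen than in the thymus by -2.12 ± 0.44 on the log2 scale (adjusted p = 0.00632), but without cells with a coreceptor UMI the difference was -1.34 (adjusted p = 0.0557). For Trbc2 the effect was smaller in the spleen by 0.55 ± 0.16 (adjusted p = 0.0312), a call that rested on several libraries, since leaving out 1 gave adjusted p values up to 0.167. For Trbc1 the difference of effects was 0.31 ± 0.19 (adjusted p = 0.265), for Ptcra -1.25 ± 1.4 (adjusted p = 0.54) and for Trac -0.50 ± 0.43 (adjusted p = 0.419). The 2 members called stand against 29.5% of all genes for this comparison.

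Cd24a, which encodes a surface protein lost as γδ thymocytes mature, was used to split the thymic γδ T cells. A Cd24a UMI was found in 20.8 and 24.3% of WT cells and in 6.48 and 4.67% of KO cells, and these cells were deeper, with median depths of 12020 and 11600 UMIs in WT and 9292 and 8662 in KO. This split was chosen after the values had been seen, and cells without a Cd24a UMI may still express the gene. Within Cd24a cells Trbc1 was at 1356 and 1220 CPM in WT and 1345 and 1181 CPM in KO, and the difference was -0.02 ± 0.08 (adjusted p = 0.918). In cells without a Cd24a UMI it was at 1322 and 1333 CPM against 462 and 405 CPM, a log2 change of -1.48 ± 0.08 (adjusted p = 0.000164). Trbc2 showed the same contrast, at -0.17 ± 0.07 (adjusted p = 0.0715) with Cd24a and -1.13 ± 0.09 (adjusted p = 0.000499) without. Dntt fell in both classes, with log2 changes of -0.76 ± 0.14 (adjusted p = 0.00835) and -2.48 ± 0.18 (adjusted p = 0.000603).

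Rag1 and Ptcra had higher levels with a Cd24a UMI than without in all 4 libraries. Rag1 had 11 and 16.0 CPM in WT and 12.8 and 18.3 CPM in KO cells with Cd24a, and 0.469 and 1.95 CPM against 0.962 and 1.06 CPM in the rest. Ptcra had 5.49 and 10.7 CPM against 8.32 and 5.60 CPM, and 0.469 and 1.28 CPM against 0.561 and 0.627 CPM. Neither gene passed the test between genotypes in either class, with adjusted p values from 0.526 to 0.881 and WT and KO libraries that overlapped. Rag2 was higher in KO Cd24a cells by 0.84 ± 0.29 (8.52 and 7.38 CPM against 3.30 and 5.54 CPM, adjusted p = 0.0493), and Trac was lower (-0.64 ± 0.13, adjusted p = 0.0031). With Cd24a the called members were thus Dntt, Rag2 and Trac, where 26.1% of 12063 genes were called, and without it Dntt, Trbc1 and Trbc2, where 55.2% of 13599 were. Whether the KO effect itself differed between the classes was not tested.

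**Figure D3:**
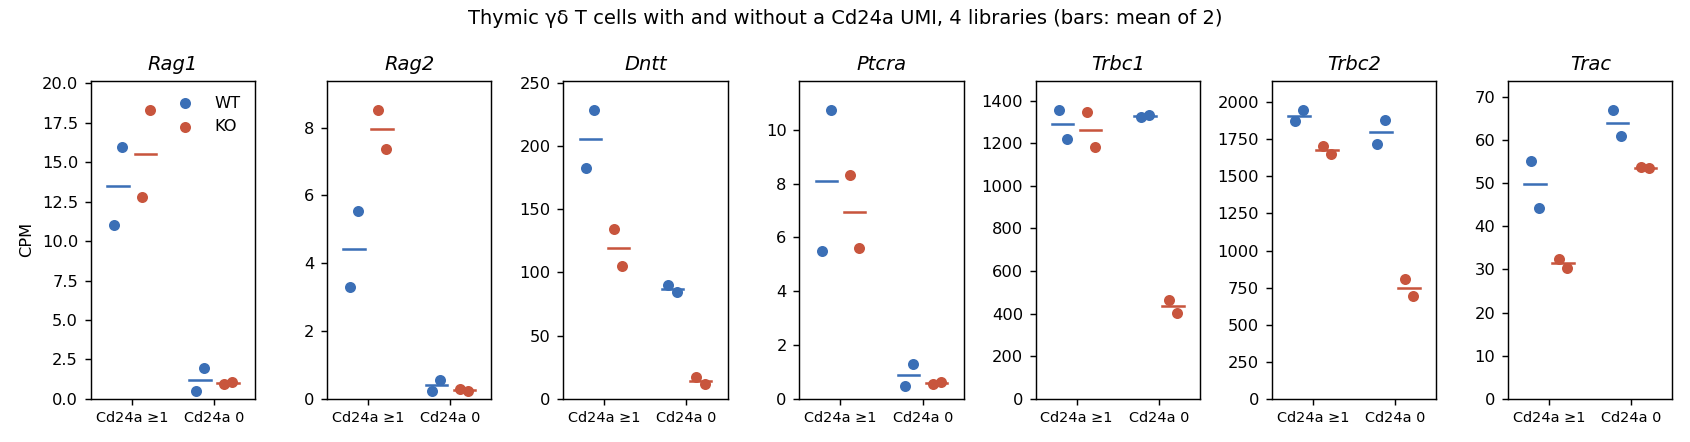
CPM of the 7 genes in thymic γδ T cells with and without a Cd24a UMI, 1 point a library, with bars at the mean of 2 libraries and all axes from 0. Trbc1 in cells with Cd24a overlaps between genotypes, and without Cd24a its KO libraries sit at 405 and 462 CPM below WT at 1322 and 1333 CPM.

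Trgv6, the variable gene of the Vγ6 chain, had a UMI in 46.3 and 51.5% of KO but 2.26 and 2.51% of WT thymic γδ T cells, and in 63.2 and 64.5% of KO but 5.15 and 4.73% of WT splenic ones. Cells thought to lack the chain were used to gauge its background. In WT thymus 2.12 and 2.34% of cells with a UMI of Trgv1, another γ variable gene, also held one of Trgv6 (median depths of 8661 and 8440 UMIs, against 6853 and 6850 in all cells). So did 2.05 and 1.86% of cells with a coreceptor UMI, which were only 5 and 8 cells. The share in all WT thymic γδ T cells was close to these values. In WT spleen the shares were 3.99 and 4.30% with Trgv1 and 2.31 and 3.21% with a coreceptor UMI. In KO they were 65.2 and 68.0% with Trgv1 in the spleen, as high as in all cells, and 27.0 and 38.8% in the thymus, so 1 UMI of a variable gene did not separate the chains. WT cells with a Trgv6 UMI are therefore not read as Vγ6 cells, and no comparison of genotypes among cells with Trgv6 is drawn. For the 7 members no such background is given, so the part of their low levels that came from other cells of a pool was not tested. Among cells without a Trgv6 UMI, which may still carry the chain, Dntt, Trbc1 and Trbc2 fell in KO by 1.61 ± 0.17 (adjusted p = 0.00229), 0.79 ± 0.08 (adjusted p = 0.00201) and 0.71 ± 0.09 (adjusted p = 0.00319) on the log2 scale in the thymus, 3 of 7 members where 42.5% of genes were called. In the spleen they fell by 3.68 ± 0.29 (adjusted p = 1.44e-05), 0.88 ± 0.08 (adjusted p = 3.71e-05) and 0.45 ± 0.10 (adjusted p = 0.00497), 3 of 4 members tested where 57.1% were called. The remaining members tested did not pass by edgeR. In the thymus Rag1 was at -0.63 ± 0.33, Rag2 at 0.00 ± 0.39, Ptcra at -0.75 ± 0.47 and Trac at -0.32 ± 0.10 (adjusted p = 0.0518 for Trac). Splenic Trac was at -0.59 ± 0.23 (adjusted p = 0.093), and DESeq2 called it (-0.58, adjusted p = 0.007). Ptcra passed the count filter in that class only with a KO library left out.

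In DN1-DN3 cells 1 of 7 members, Trac, passed the test between KO and WT, where 23.0% of 14911 genes were called and 15.2% were called higher. Trac had 18.8 and 20.7 CPM in WT and 154 and 65.6 CPM in KO. Both KO libraries stood above both WT ones but differed from each other by more than the WT pair did, and the rise of 2.45 ± 0.32 on the log2 scale, 5.46-fold, passed (adjusted p = 0.000655). Without KO replicate 1 it was 1.77 (adjusted p = 0.00073) and without KO replicate 2 it was 2.87 (adjusted p = 1.88e-05). A Trac UMI was seen in 7.09 and 6.53% of WT cells and in 35.2 and 17.9% of KO cells, and after thinning to 3000 UMIs in 4.38% ± 0.108 and 22.5% ± 10.6 (SD, n = 2 each).

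Dntt in DN1-DN3 had 787 and 851 CPM in WT and 492 and 553 CPM in KO, groups that did not overlap (-0.65 ± 0.23, adjusted p = 0.0675, and 0.0366 with the pool as a block). DESeq2 called Dntt lower as well (-0.65, adjusted p = 0.0178). Trbc1 had 724 and 771 CPM against 563 and 686 CPM (-0.26 ± 0.14, adjusted p = 0.207, 0.0463 with the block, and -0.51 with adjusted p = 0.0103 without KO replicate 2). With the block the count of called members was thus 3 and not 1. Trbc2 had 1331 and 1357 CPM in WT against 1262 and 1271 CPM in KO (-0.09 ± 0.12, adjusted p = 0.63).

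Rag1 had 203 and 216 CPM in WT and 224 and 318 CPM in KO DN1-DN3 cells (0.38 ± 0.27, adjusted p = 0.347), and Rag2 had 44.4 and 49.4 against 51.7 and 62.7 CPM (0.29 ± 0.24, adjusted p = 0.418). Ptcra had 102 and 126 CPM against 95.4 and 168 CPM (0.22 ± 0.34, adjusted p = 0.678), and -0.36 without KO replicate 2, so its direction rested on that library. KO replicate 1 was the library with the lower Rag1 and Ptcra and the higher Trac. The KO effect differed between thymic γδ T and DN1-DN3 cells for 5 members, where 21.8% of genes were called: Dntt by -1.63 ± 0.32 (adjusted p = 0.0068), Trbc1 by -0.96 ± 0.19 (adjusted p = 0.00692), Trbc2 by -0.92 ± 0.16 (adjusted p = 0.0039), Trac by -2.52 ± 0.44 (adjusted p = 0.00373) and Rag1 by -1.52 ± 0.42 (adjusted p = 0.0385). The Rag1 call was lost when any of 6 of the 8 libraries was left out, with adjusted p up to 0.133. It was also lost without cells with a coreceptor UMI (-1.19, adjusted p = 0.0558), without a filter on low counts (-1.54, adjusted p = 0.15) and with all genes kept (-1.57, adjusted p = 0.0633). For Ptcra the difference was -1.65 ± 0.58 (adjusted p = 0.07, 0.0454 with the block) and for Rag2 -1.06 ± 0.41 (adjusted p = 0.1). Without the cells with the most UMIs both were called, at -2.15 (adjusted p = 0.0264) for Ptcra and -1.88 (adjusted p = 0.00598) for Rag2. Without WT thymic γδ T replicate 1 the values were -2.11 and -1.45.

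Kit, the stem cell factor receptor, marks early DN cells but not all of DN1, since the paper defined DN1d and DN1e cells as Kit-negative. DN1-DN3 cells were split by whether they held a Kit UMI. Kit was detected in 17.2 and 14.6% of WT cells and 8.51 and 10.2% of KO cells, with a median depth of 8286 to 9147 UMIs against 5479 to 5822 in cells without it. In WT, cells with Kit had less Rag1, Ptcra and Trac. Rag1 was at 136 and 134 CPM with Kit and 222 and 234 CPM without (-0.77 ± 0.09, adjusted p = 0.00554), and Ptcra at 72.2 and 84.2 against 110 and 136 CPM (-0.67 ± 0.07, adjusted p = 0.00157). Trac was at 5.40 and 6.86 against 22.7 and 23.9 CPM (-1.95 ± 0.14, adjusted p = 0.000295), which are 3 of 7 members where 4.37% of 13471 genes were called. Dntt (798 and 845 against 784 and 852 CPM) and Trbc2 (1322 and 1382 against 1333 and 1351 CPM) had differences of -0.01 ± 0.10 (adjusted p = 0.975) and -0.01 ± 0.05 (adjusted p = 0.968). Rag2 had -0.33 ± 0.10 (adjusted p = 0.146) and Trbc1 0.02 ± 0.09 (adjusted p = 0.942). Without WT replicate 1 Rag1 was at -0.82 and Ptcra at -0.71, and without WT replicate 2 they were at -0.71 and -0.61. Neither call held there, but the spread came from the KO pair alone, so no p is given.

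In KO, 1 of 7 members, Trac, passed the test by Kit, where 25.6% of genes were called. It was at 26.5 and 16.1 CPM with Kit and 173 and 74.1 CPM without (-2.49 ± 0.11, adjusted p = 1.16e-05). Rag1 stood at 231 and 253 CPM with Kit and 223 and 329 CPM without (-0.19 ± 0.09, adjusted p = 0.173), and Ptcra at 96.5 and 142 against 95.2 and 172 CPM (-0.16 ± 0.07, adjusted p = 0.142). The other values were -0.03 ± 0.11 for Rag2, 0.24 ± 0.10 for Dntt, 0.25 ± 0.09 for Trbc1 and 0.09 ± 0.05 for Trbc2, with adjusted p from 0.102 to 0.851. With the class drawn at 2 or more Kit UMIs, Rag1 (-0.50, adjusted p = 0.000168) and Ptcra (-0.62, adjusted p = 5.82e-05) were lower with Kit in KO too. The KO libraries differed here. Without KO replicate 1 the differences were -0.37 for Rag1, -0.24 for Rag2, -0.27 for Ptcra, 0.03 for Dntt and 0.05 for Trbc1, and without KO replicate 2 they were 0.02, 0.22, -0.01, 0.47 and 0.47. These values come from 1 KO library with its spread taken from the WT pair alone, so no p is given for them. The Kit effect differed between genotypes for Rag1 by 0.58 ± 0.13 (adjusted p = 0.0453) and Ptcra by 0.51 ± 0.10 (adjusted p = 0.0249), 2 of 7 members where 6.67% of genes were called. Without WT replicate 1 the Rag1 and Ptcra differences were 0.65 and 0.58, and without WT replicate 2 they were 0.52 and 0.46. Neither call held there, with the spread taken from the KO pair alone, so no p is given. Without the library as a block none of the Kit calls held, with adjusted p of 0.282 for Rag1, 0.807 for Ptcra and 0.147 for Trac in WT, 0.0608 for Trac in KO, and 0.776 and 0.851 for the Rag1 and Ptcra differences. With 2 or more Kit UMIs the WT Trac call was lost too (-1.93, adjusted p = 0.149), and Rag2 was called lower with Kit in WT (-0.67, adjusted p = 0.000212).

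**Figure D4:**
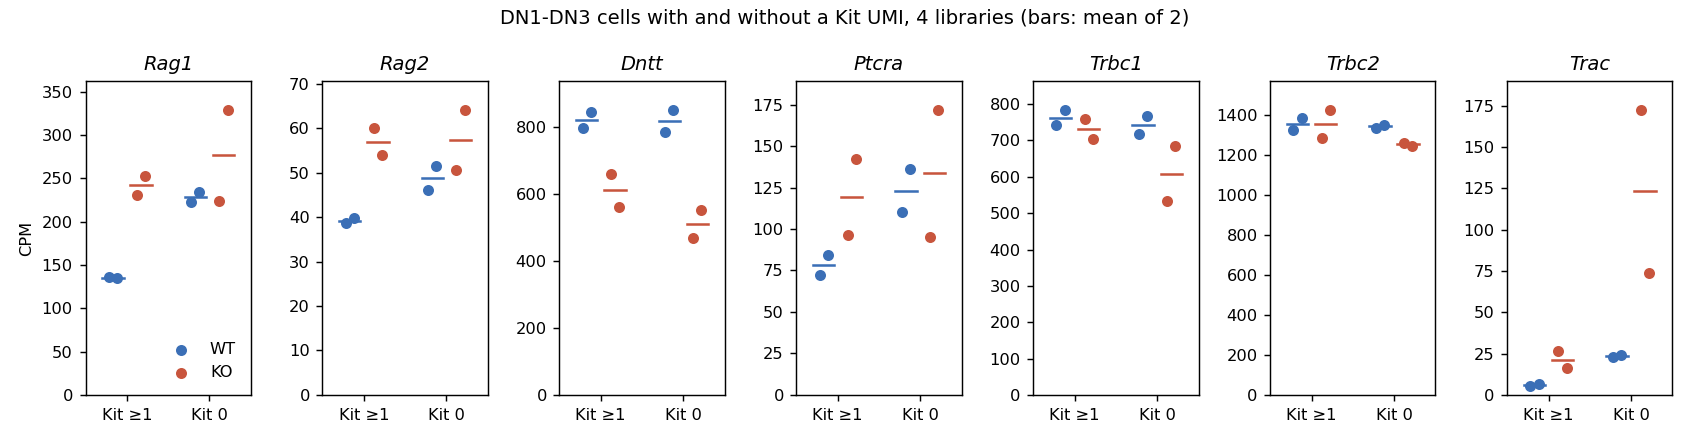
CPM of each gene in DN1-DN3 cells with at least 1 Kit UMI and with none, 1 point a library, with bars at the mean of 2 libraries and all axes from 0. In cells with Kit the KO libraries hold Rag1 at 231 and 253 CPM above WT at 136 and 134 CPM, and without Kit the genotypes overlap.

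Read the other way, KO against WT among the Kit cells alone, both recombinase genes and Trac were higher in KO, 3 of 7 members where 10.1% of 11755 genes were called. Rag1 rose by 0.88 ± 0.13 (adjusted p = 0.000562), from 136 and 134 to 231 and 253 CPM. Rag2 rose by 0.57 ± 0.12 (adjusted p = 0.00554), from 38.6 and 39.7 to 60.0 and 54.0 CPM, a call lost without WT replicate 1 (0.50). Trac rose by 1.81 ± 0.22 (adjusted p = 0.000102), from 5.40 and 6.86 to 26.5 and 16.1 CPM, and with 2 or more Kit UMIs by 1.18 (adjusted p = 0.334, not called). Ptcra had 0.66 ± 0.20 (adjusted p = 0.0691) and Dntt -0.40 ± 0.15 (adjusted p = 0.151), and the pool as a block called both (adjusted p = 8.7e-06 and 0.00028), which makes 5. DESeq2 called Ptcra and Dntt too (adjusted p = 0.0245 and 0.025). Leaving out 1 library of gated cells sets a lone library against 2 and takes the spread from that pair alone. Calls gained or lost that way are therefore given as values with no p. Ptcra was at 0.81 without WT replicate 2 and 0.96 without KO replicate 1.
The share of Kit cells with a Rag1 UMI followed, at 31.3 and 32.6% in WT and 43.0 and 43.5% in KO after thinning to 3000 UMIs, with Kit called after the thinning.

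In cells without Kit, 1 of 7 members, Trac, passed between genotypes, with 22.7 and 23.9 CPM in WT against 173 and 74.1 CPM in KO (2.40 ± 0.37, adjusted p = 0.0156), where 14.3% of 13772 genes were called. Without WT replicate 1 or 2 the Trac call was lost, at 2.32 and 2.49. With the block Dntt was called beside Trac (-0.67, adjusted p = 0.0161), and DESeq2 called Dntt too (-0.66, adjusted p = 0.00234). Leaving out KO replicate 1, Rag1 was at 0.60, Rag2 at 0.46 and Ptcra at 0.55. Without KO replicate 2 Rag1 was at -0.06, Ptcra at -0.40 and Dntt at -0.84.

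Il2ra, which encodes the CD25 chain that marks DN2 and DN3, split the cells further. Cells with Il2ra and no Kit were the largest class, at 64.9 and 64.0% of WT and 52.6 and 58.8% of KO cells, and held 74.3 to 78.2% of all Rag1 UMIs and 74.7 to 78.7% of all Ptcra UMIs in each of the 4 libraries. Rag1 there was at 244 and 261 CPM in WT and 298 and 401 CPM in KO (0.49 ± 0.20, adjusted p = 0.198). Ptcra was at 123 and 154 CPM in WT and 128 and 213 CPM in KO (0.32 ± 0.32, adjusted p = 0.617). By edgeR none of the 7 members passed in this class, where 8.10% of 13268 genes did, although 4 had an unadjusted p under 0.05. DESeq2 called Dntt (-0.46, adjusted p = 0.0117) and Trac (2.51, adjusted p = 0.00783). The block called Rag2 (0.43, adjusted p = 0.0289) and Dntt (-0.47, adjusted p = 0.0331), and the values moved with the KO library left out. Without KO replicate 1 Rag1 was at 0.74, Rag2 at 0.58, Ptcra at 0.69 and Trac at 1.47, and without KO replicate 2 Ptcra was at -0.16, Dntt at -0.57 and Trac at 3.1, with no p for the reason given above.

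Cells with neither Kit nor Il2ra were more frequent in KO, at 38.9 and 31.0% against 17.9 and 21.5% in WT, and they carried most Trac. They held 55.8 and 61.7% of all Trac UMIs in WT and 61.8 and 68.9% in KO, at 71.2 and 64.2 CPM in WT and 313 and 194 CPM in KO. Rag1 in this class was at 131 and 152 CPM in WT and 84.2 and 139 CPM in KO, and Dntt at 568 and 671 CPM in WT and 210 and 309 CPM in KO. Among the 4 Kit and Il2ra classes Trac was lowest in cells with both, at 4.03 and 3.97 CPM in WT and 18.2 and 12.3 CPM in KO, and the KO libraries exceeded the WT ones in each class. These class values are given without a test.

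Il2rb, the interleukin receptor chain found on mature and innate-like T cells, separated the Trac signal more sharply. The paper annotated a cluster of these sorted cells as Il2rb+ DN1e and found it overrepresented in KO. Whether the cells with an Il2rb UMI belong to that cluster was not tested. An Il2rb UMI was found in 4.0 and 3.8% of WT and 27.2 and 14.6% of KO DN1-DN3 cells, and these cells held 49.7 and 54.6% of Trac UMIs in WT and 65.5 and 61.9% in KO. Among them Trac was at 269 and 351 CPM in WT and 386 and 325 CPM in KO, which overlapped (0.22 ± 0.19, adjusted p = 0.489). In cells without an Il2rb UMI it was at 9.81 and 9.70 CPM in WT and 72.0 and 28.5 CPM in KO, a rise of 2.34 ± 0.44 (adjusted p = 0.0408). Such cells may still express Il2rb, so this class may hold Il2rb cells whose transcript went uncounted. Their part in the rise was not tested. Dntt among Il2rb cells was at 478 and 407 CPM in WT and 145 and 199 CPM in KO, a log2 change of -1.32 ± 0.20 (adjusted p = 0.00436), and -0.45 ± 0.15 in the rest (adjusted p = 0.129). Over all genes 13.7% were called in cells with Il2rb and 12.1% in the rest. This split was also chosen after the values had been seen, and whether the KO effect differed between its classes was not tested. NK cell genes summed to 5.27 to 6.91 CPM in WT and 13.6 to 20.6 CPM in KO DN1-DN3, with 1 of 4 at 0 in each WT library and none in KO, and their part in the Trac result was not tested. Myeloid genes had a UMI in 5.26 to 5.84% of WT and 1.51 to 1.62% of KO DN1-DN3 cells and summed to 7.23 to 8.36 and 4.44 to 6.68 CPM, and their part in the DN1-DN3 results was not tested either. Cells with a Trdc UMI, 51.3 and 52.5% of WT and 31.2 and 41.9% of KO cells, held 25.3 and 26.3% of Trac UMIs in WT and 12.4 and 14.9% in KO. Cells with a Trdc UMI were deeper, with median depths of 7558 to 8574 UMIs against 4344 to 5059 in cells without one. Trac and Trdc lie in 1 locus, and a rearranged α locus has lost its Trdc segment. Whether the Trac UMIs came from cells with such a rearrangement was not tested.

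**Figure D5:**
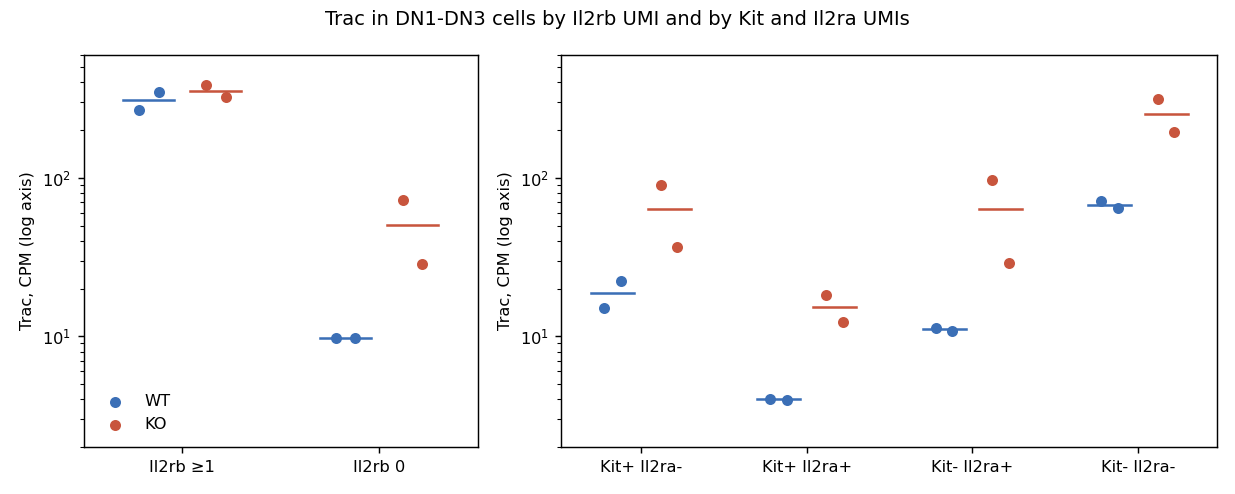
Trac level in DN1-DN3 cells, in CPM on a log axis, by Il2rb UMI (left) and by Kit and Il2ra UMIs (right), 1 point a library with bars at the mean of 2 libraries. WT and KO overlap in cells with Il2rb at 269 to 386 CPM, and the KO libraries lie above the WT ones in every other class drawn.

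Mki67, a gene of cycling cells, was used to split DN1-DN3 cells as well. In WT DN1-DN3, Rag1 was at 109 and 104 CPM in cells with a Mki67 UMI and 320 and 343 CPM in the rest, and in KO at 142 and 157 against 269 and 439 CPM. Rag2 was at 29.6 and 32.0 against 62.9 and 69.1 CPM in WT, and in KO at 50.6 against 52.3 CPM in replicate 1 and 45.5 against 75.5 CPM in replicate 2, so it hardly differed in KO replicate 1. Ptcra was at 61.3 and 72.1 against 152 and 188 CPM in WT and 73.5 and 96.9 against 107 and 221 CPM in KO. Trbc2 was higher in cycling cells in all 4 libraries, at 1429 to 1449 CPM against 1153 to 1252 CPM, and so was Trbc1, at 647 to 785 CPM against 517 to 755 CPM. Dntt was at 656 and 700 against 950 and 1022 CPM in WT and at 485 and 442 against 495 and 637 CPM in KO. Cells with Mki67 were 34.1 and 30.7% of WT and 21.9 and 25.7% of KO cells, at median depths of 12900 and 13980 UMIs in WT and 7948 and 11600 in KO, and these values are given without a test.

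Trbc1 and Trbc2 share the first part of their transcripts but little of the last. The first 500 bases of their annotated transcripts in GENCODE (GRCm38) were identical at 481 positions (96.2%). After base 500, where 237 and 192 bases remain, 18 positions aligned and 11 of them were identical (61.1%), and over the whole transcripts of 737 and 692 bases 588 of 676 aligned positions were (87.0%). How many reads fell in each stretch was not tested, and reads in the shared one can go to either gene or to none, so the split between them is uncertain. As counted, Trbc1 made up 37.3 and 36.8% of Trbc UMIs in WT spleen and 28.3 and 32.0% in KO. In thymic γδ T cells the shares were 43.0 and 40.3% in WT and 38.3 and 37.9% in KO, and in DN1-DN3 35.2 and 36.2% against 30.8 and 35.1%. In whole libraries KO lay below WT in all 3 compartments, though the nearest DN1-DN3 libraries were at 35.06 and 35.24%. The order was not kept in every gate. Thymic γδ T cells with Cd24a had 42.0 and 38.5% in WT and 44.1 and 41.7% in KO. Those without it had 43.5 and 41.4% against 36.4 and 36.9%. DN1-DN3 cells with Kit had 35.9 and 36.2% in WT and 37.1 and 33.0% in KO. Those without it had 35.0 and 36.2% against 29.8 and 35.45%. The share of splenic cells with a Trbc2 UMI was 87.0% ± 1.05 in WT and 89.9% ± 0.693 in KO, the opposite order to the CPM, and after thinning to 3000 UMIs 85.9% ± 2.00 and 79.6% ± 0.997 (SD, n = 2 each), so no order is read from the unthinned share.

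Genes of the same pathways were followed in DN1-DN3 by fixed lists. Of 13 end-joining and RAG partner genes, 2 rose and 1 fell in KO (median log2 -0.12, against -0.02 over all genes), a share near the 23.0% of all genes called. Polm, a polymerase related to TdT that fills ends, rose from 1.47 and 1.27 to 5.08 and 2.38 CPM (1.42 ± 0.28, adjusted p = 0.00567), and Poll, another end-joining polymerase, from 2.06 and 1.99 to 3.60 and 3.06 CPM (0.71 ± 0.19, adjusted p = 0.0227). Xrcc6, which encodes Ku70, fell from 328 and 296 to 234 and 259 CPM (-0.33 ± 0.10, adjusted p = 0.0342). Of 10 CD3 chains and proximal kinases, 3 rose and 1 fell (median 0.12), against the same 23.0%. Themis, a TCR signalling adaptor, fell from 1302 and 1081 to 540 and 485 CPM (-1.22 ± 0.11, adjusted p = 8.41e-05), while the kinase genes Fyn (1.13 ± 0.14, adjusted p = 0.000412) and Zap70 (1.33 ± 0.21, adjusted p = 0.00163) rose. In the spleen 5 of the 10 rose and 3 fell, where 54.8% of all genes were called, and in thymic γδ T cells 5 rose and 2 fell, where 49.7% were.

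Of 20 regulators of these genes, 7 rose and 1 fell in KO DN1-DN3 (median 0.04), where 15.2% of all genes were called higher and 7.73% lower. In γδ T cells 13 fell and 4 rose in the spleen (median -1.20), and 11 fell and 3 rose in the thymus (median -0.71). The medians over all genes were 0.00 there, and 26.1% and 23.7% of all genes were called lower. Whether the list's KO effect differed between compartments was not tested. In DN1-DN3, Foxo1, a factor that activates Rag genes, rose from 33.3 and 28.2 to 102 and 78.9 CPM (1.55 ± 0.11, adjusted p = 2.24e-05). Id2, an inhibitor of E proteins, rose from 47.0 and 46.3 to 425 and 171 CPM (2.65 ± 0.33, adjusted p = 0.000526). Both were higher in KO replicate 1 than in KO replicate 2, as Trac was.

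Of the 4 γδ constant genes 3 fell in KO DN1-DN3 (median -0.48), where 7.73% of all genes were called lower: Trgc4 (-0.89 ± 0.18, adjusted p = 0.00585), Trgc1 (-0.41 ± 0.10, adjusted p = 0.0122) and Trgc2 (-0.52 ± 0.14, adjusted p = 0.0263). Of 9 stage markers 3 rose and 1 fell, against 15.2% and 7.73% of all genes, and Il2rb (2.72 ± 0.25, adjusted p = 9.47e-05), Cd44 (2.89 ± 0.38, adjusted p = 0.000668) and Il7r (1.41 ± 0.25, adjusted p = 0.00299) were the ones with the lowest adjusted p. Cd44 marks DN1 and DN2 as well as mature T cells, and Il7r encodes the receptor chain for IL-7. Among cells with Kit, where 10.1% of genes were called, none of the 13 end-joining genes was called, 3 of the CD3 list rose and 1 fell, and 7 regulators rose (median 0.21). Of the γδ constant genes 1 fell, and of the stage markers 1 rose and 1 fell.

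Profiles most like those of the members were sought among 6718 genes with a mean of 20 CPM or more, by the root mean square difference of centred log2(CPM + 1) values over the 12 libraries. Rag1 and Ptcra had Notch3 as the nearest gene, at 0.50 and 0.56, and Rag2 had Dgkeos at 0.73 with Notch3 as its next but one at 0.78. After Notch3, Rag1 was nearest to Myl10 (0.85) and Ccdc18 (0.95), and Ptcra to Adamts17 (0.67) and Ccdc18 (0.84), and Adamts17 was also second for Rag2 (0.75). Dntt was nearest to Arpp21 (0.58), Aqp11 (0.62) and Ly6d (0.73). Trbc1 lay close to Nrip1 (0.15), Kdm5b (0.17) and Phtf2 (0.22), Trbc2 to Dap3 (0.13), Pbx2 (0.15) and Pip4k2a (0.16), and Trac to Gramd1a (0.41), Plekha1 (0.43) and Traf5 (0.44). Genes that vary little over libraries are near one another by this measure, and the 12 libraries share pools, so the distances are a description.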

How the data were processed

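Droplet 3′ libraries (Single Cell 3′ v3.1 chemistry) of hashtagged WT and KO cells were analysed. Deposited values are whole UMI counts per gene and cell, made by the authors with Cell Ranger 8.0.1 and build GRCm39 (named in the submitters' processing notes), and split by hashtag with hashsolo, which also removes droplets with both hashtags; no other doublet caller was run, so doublets within a genotype remain. The genotype of a matrix was read from the hashtag labels. All 33696 genes were in each of the 12 matrices, and the number of unused per-sample columns was 0.

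Of 97404 barcodes, 96911 passed 3 limits (500 UMIs, 200 genes detected, mitochondrial share up to 20%). Mitochondrial, ribosomal and Gm-named genes (9548) were left out, as in the study's methods. UMI counts were summed per library, or per library and gate, and tested with edgeR 4.0.16 (quasi-likelihood, TMM, limma 3.58.1) in R 4.3.3, with Benjamini-Hochberg adjustment over all genes tested. A call means an adjusted p under 0.05. Fits of whole libraries held all 12 libraries. Fits of gated cells held the 4 libraries of the compartment, and fits of Kit against no Kit used the library as a block. DESeq2 1.42.0 was an alternative. Gates were drawn at 1 UMI of a single gene, of Kit and Il2ra together, or of any coreceptor gene, with 2 or more Kit UMIs as an alternative. A cell without a UMI of a gate gene may still express that gene. Shares have 95% Wilson intervals of at most 1.16 percentage points on either side for whole libraries, and floors rest on 3 counts. Remaining steps ran in Python 3.11.15 (pandas 2.3.3, scipy 1.17.1, numpy 2.4.6, Biopython 1.88, matplotlib 3.10.9).

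On counts simulated from the DN1-DN3 comparison (14890 genes, 100 changed genes of each size), the edgeR step recovered 87% of genes changed by 1 and 100% of those changed by 2 on the log2 scale, and 4.59% of its calls were false. Every simulated gene had the same spread, changes were put only in genes above a low level, and all others were equal between genotypes. Spread in the real data differed by gene, so these rates do not tell what could be detected for the members.

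The labels put WT and KO cells of the same number in 1 pool, which pairs them. Correlations of the deviations of same-pool libraries from their group means over 14911 genes were 0.266 in the spleen, 0.06 in thymic γδ T cells and 0.157 in DN1-DN3.

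The members were named for this work. From each gene list the 3 called genes with the lowest adjusted p in DN1-DN3 were named, together with genes used as gates and the 3 genes nearest in profile to each member; 1 gene that this rule names, and the levels of the B cell marker list, are not reported here. Members and lists were chosen with earlier results of these data known. Alternatives covered scaling, filters, tools, cell limits, cells with coreceptor or B cell genes, single libraries, the pool as a block and the Kit threshold. Promoters came from a RefSeq-derived table of another build (GRCm38.p6), so no coordinates of the deposited build were used.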

Additional observations from a re-analysis of the deposited data

Results flagged for a closer look

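Member values differed in 9 cases between groups by a test of the difference itself. Between splenic and thymic γδ T cells the KO effect differed for Dntt by -2.12 and for Trbc2 by 0.55 on the log2 scale, where 29.5% of all genes were called. The Dntt difference was not called without coreceptor cells (adjusted p = 0.0557), and the Trbc2 one was lost with library size only and when any of 6 of the 8 libraries was left out (adjusted p from 0.0601 to 0.167). Between thymic γδ T and DN1-DN3 cells it differed for Trac by -2.52, Dntt by -1.63, Rag1 by -1.52, Trbc1 by -0.96 and Trbc2 by -0.92, where 21.8% were called. The Rag1 difference was lost when any of 6 of the 8 libraries was left out (adjusted p from 0.0825 to 0.133). Between WT and KO DN1-DN3 cells the difference of cells with Kit from cells without it differed for Rag1 by 0.58 and for Ptcra by 0.51, where 6.67% were called. Both were lost without either WT library and without the library as a block (adjusted p = 0.776 and 0.851 without the block). The thymic γδ T libraries enter both of the first 2 comparisons, so these values are not independent of one another.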

How the results depend on the processing

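Member calls were recomputed with other scalings, filters, tools, cell limits and gates, and without each library. The number of members called between KO and WT was 3 in the spleen, and 5 with the 4 splenic libraries alone. In thymic γδ T cells it was 5, and 3 without a filter on low counts, 3 in cells with Cd24a (Dntt, Rag2 and Trac) and 3 in cells without it (Dntt, Trbc1 and Trbc2), and 3 to 6 with 1 library left out. In DN1-DN3 it was 1, and 2 with DESeq2, 3 with the pool as a replicate block and 1 to 2 with 1 library left out. For the difference of KO effects between spleen and thymus it was 2, and 1 with library size only, 1 without coreceptor cells and 1 to 2 with 1 library left out. For Kit it was 3 in WT, 1 in KO and 2 for their difference, and 0 in all 3 without the replicate block. Leaving out a library of gated cells takes the spread from the pair of the other genotype alone. It gave 1 in WT, 3 to 5 in KO and 0 to 6 for the difference, and 2 or more Kit UMIs gave 3 in KO. In cells with Kit it was 3, and 5 with DESeq2 and 5 with the block. In cells without Kit it was 1, and 2 with DESeq2, 2 with the block and 0 to 4 with 1 library left out. In cells with Il2ra and no Kit it was 0, and 2 with DESeq2, 2 with the block and 0 to 4 with 1 library left out. The replicate block changed no other member's call than those named beside their results. Values that changed sign with 1 library left out ranged, between KO and WT, from -0.18 to 0.04 for Trac in thymic γδ T cells, -0.36 to 0.59 for Ptcra in DN1-DN3, -0.11 to 0.17 for Trbc2 and -0.12 to 0.05 for Trbc1 in cells with Kit, -0.40 to 0.55 for Ptcra and -0.06 to 0.60 for Rag1 in cells without Kit, -0.08 to 0.01 for Trbc2, -0.40 to 0.02 for Trbc1 and -0.16 to 0.69 for Ptcra in cells with Il2ra and no Kit, and -0.03 to 1.27 for Rag1 in thymic cells with Trgv6, a class not compared in the text. The Kit difference ranged in WT from -0.03 to 0.02 for Dntt and -0.01 to 0.02 for Trbc2, and in KO from -0.37 to 0.02 for Rag1 and -0.24 to 0.22 for Rag2. Trbc1 in KO thymic γδ T against DN1-DN3 cells ranged from -0.38 to 0.04. Within Il2rb cells of DN1-DN3, Rag1 (-0.39), Rag2 (-0.53) and Ptcra (-0.35) had the opposite sign to all cells, as did Rag1 (0.18) and Rag2 (0.84) in thymic Cd24a cells, and both splits were added after the data had been seen. The KO minus WT share of cells with a UMI changed sign for splenic Trbc2 (-6.32 points at 3000 UMIs, -8.36 at 2000, 2.88 unthinned) and for Rag2 in DN1-DN3 (0.031 at 2000, -1.67 unthinned). Of all genes, 3424 were called between KO and WT in DN1-DN3 and 1675 to 1956 without WT replicate 1, WT replicate 2 or KO replicate 1, 2074 with 4 libraries, and 1506 and 1667 in cells with and without Il2rb. In thymic γδ T cells 7418 were called and 3148 in Cd24a cells. By Kit, 589 were called in WT (22 without the block, 345 with DESeq2, 1182 with 2 or more Kit UMIs), 3446 in KO (3, 1836 and 2151) and 899 for the difference (0 without the block, 377 with DESeq2). In cells with Kit 1182 were called, 2065 with the block and 618 with 2 or more Kit UMIs, and in cells with Il2ra and no Kit 1075, 1775 with DESeq2 and 1729 with the block. With 1 library left out, all genes called ranged from 0 to 4180 in that last class and from 26 to 5495 in cells without Kit. The lowest counts over all genes with 1 library left out were 1883 (3258 with all) for the difference of KO effects between thymic γδ T and DN1-DN3 cells, 2634 (4405) for that between spleen and thymus, 4654 (7034) for WT thymic γδ T against DN1-DN3 cells, 3592 (5453) for KO spleen against thymus, 1740 (2651) in splenic cells with Trgv6, 2079 (5775) in thymic cells without it, and 53 (589) and 11 (899) for Kit in WT and its difference, which reached 3372. Where a call ended or a sign changed, the cause was not tested. Rag1, Rag2 and Ptcra had low counts in γδ T cells, and whether this limited what could be detected was not tested.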
